A study of Mus musculus with 12 samples.

Results

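Interferon-induced genes were followed through thymic tumors, pre-leukemic thymus and wild-type thymus of the Sdl mouse model. A list of 42 genes known from interferon responses was matched to the gene symbols of an Affymetrix Mouse Exon 1.0 ST array, taking only transcript clusters annotated with exactly 1 symbol. Of the 42 genes, 33 were measured, among 15223 symbols of the array. The other 9 were not: Ifit3, Oas3, Eif2ak2 and Igtp stood only in clusters shared with other symbols, and Ifi44, Isg15, Usp18, Herc6 and Xaf1 had no cluster of their own symbol. The tumors came from female Mcm4 D573H/+ mice that were moribund, at ages the labels do not give. The pre-leukemic thymuses came from female Mcm4 D573H/+ mice at 21 days, and the wild-type thymuses from female Mcm4 +/+ mice at 21 days. Mcm4 encodes a subunit of the helicase that opens DNA for replication. Each array held RNA pooled from 3 whole organs, and each of the 3 groups had 4 arrays, so that 12 arrays were measured. The tumors therefore differed from wild-type thymus in disease, age and genotype, which cannot be told apart here, and from pre-leukemic thymus in disease and age. In whole organs, fewer cells of a type and less RNA per cell cannot be told apart either.

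Interferons are secreted proteins that bind receptors on the cell surface and, through JAK kinases, activate transcription factors, among them STAT2 and IRF9. These act at the interferon-stimulated response element (ISRE) in promoters, whereas interferon gamma acts mainly through the gamma-activated site (GAS). The induced proteins recognise viral nucleic acid, degrade RNA, block translation or disturb viral membranes. In the thymus, interferon made without infection, in part by medullary epithelial cells, is known to keep many of these genes active in maturing T cells.

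The promoters of 5 genes are printed to show how unlike the promoters of the genes with the main patterns are. They are the 150 bases before the annotated start, from RefSeq on GRCm38.p6, read 5′ to 3′ on the gene's strand, with capitals for every match to the ISRE core (GAAA, any 2 bases, GAAA) on either strand.
Ifit1 (chr19:34640739-34640888, plus strand): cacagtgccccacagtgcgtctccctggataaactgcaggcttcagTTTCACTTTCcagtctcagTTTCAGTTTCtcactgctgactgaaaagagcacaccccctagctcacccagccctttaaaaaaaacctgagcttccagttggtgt
Rsad2 (chr12:26456453-26456602, minus strand): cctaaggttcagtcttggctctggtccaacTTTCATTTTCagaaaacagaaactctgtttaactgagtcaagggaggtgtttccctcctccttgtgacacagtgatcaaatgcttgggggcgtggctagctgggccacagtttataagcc
Bst2 (chr8:71537473-71537622, minus strand): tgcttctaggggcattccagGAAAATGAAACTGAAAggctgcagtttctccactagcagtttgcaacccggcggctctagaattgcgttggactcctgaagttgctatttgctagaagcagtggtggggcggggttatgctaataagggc
Oasl2 (chr5:114896784-114896933, plus strand): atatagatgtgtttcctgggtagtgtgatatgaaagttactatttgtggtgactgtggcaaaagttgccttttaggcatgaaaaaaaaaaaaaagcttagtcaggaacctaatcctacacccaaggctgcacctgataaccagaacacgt
Dtx3l (chr16:35939028-35939177, minus strand): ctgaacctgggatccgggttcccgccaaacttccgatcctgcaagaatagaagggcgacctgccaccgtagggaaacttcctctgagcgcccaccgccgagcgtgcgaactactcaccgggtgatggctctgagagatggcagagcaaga
Ifit1 held 2 separate matches, Rsad2 held 1, and Bst2 held 2 that overlap. Oasl2 and Dtx3l held none in these windows, although Oasl2 was among the genes with the largest falls in tumors and Dtx3l was higher there. In windows of 250 bases before to 50 after the start, the core was found in 16 of 32 listed genes with an entry (50%) and in 1079 of 27025 genes of the whole table (3.99%). Among measured genes it stood in 7 of 15 that were lower in tumors than in wild-type thymus (46.7%), in 0 of 2 that were higher and in 4 of 7 that were not called. The GAS letters TTCNNNGAA were found in 8 of the 32 genes (25.0%), against 9.55% of all genes. These are matches of letters and were not tested for binding.

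The deposited values were linear intensities for 17829 clusters, from 6.17 to 24310, and are given below as log2 intensity. As a guide to background, 758 clusters of olfactory receptor genes had a median of 4.71 and a 95th percentile of 6.84 on this scale. A level below 6.84 is therefore called weak, and a difference that reaches it may understate the change. Arrays of 1 group correlated at 0.984 to 0.996 over all clusters, and no pair was identical. The labels call the arrays biological replicates. A gene was called where limma's moderated test gave a Benjamini-Hochberg adjusted p under 0.05 over all 17829 clusters, and groups were called separate where every array of one lay above every array of the other.

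Most interferon-induced genes were lower in tumors than in wild-type thymus. Of the 33 measured genes, 20 fell and 2 rose by limma with Benjamini-Hochberg adjustment, and 11 were not called. Over all clusters, 14.5% were called lower and 16.2% higher, and 28 of the 33 genes had a negative difference, against 39.3% of clusters. At least 2-fold falls were called for 10 of the 33 genes, against 3.36% of clusters. Of the 17829 clusters, 6009 were weak in both groups, against 1 of the 33 genes. Weak clusters can hardly show such falls, and no share was taken among clusters of like level. Groups were separate with tumors lower for 18 genes and with tumors higher for 2, against 15.7% and 18.3% of clusters. The median difference of the 33 genes was -0.47, beside 0.07 over all clusters. The falls were largest among effectors that act on RNA and translation, while the group that held the ubiquitin and ADP-ribose enzymes had a median near 0.

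**Figure D1:**
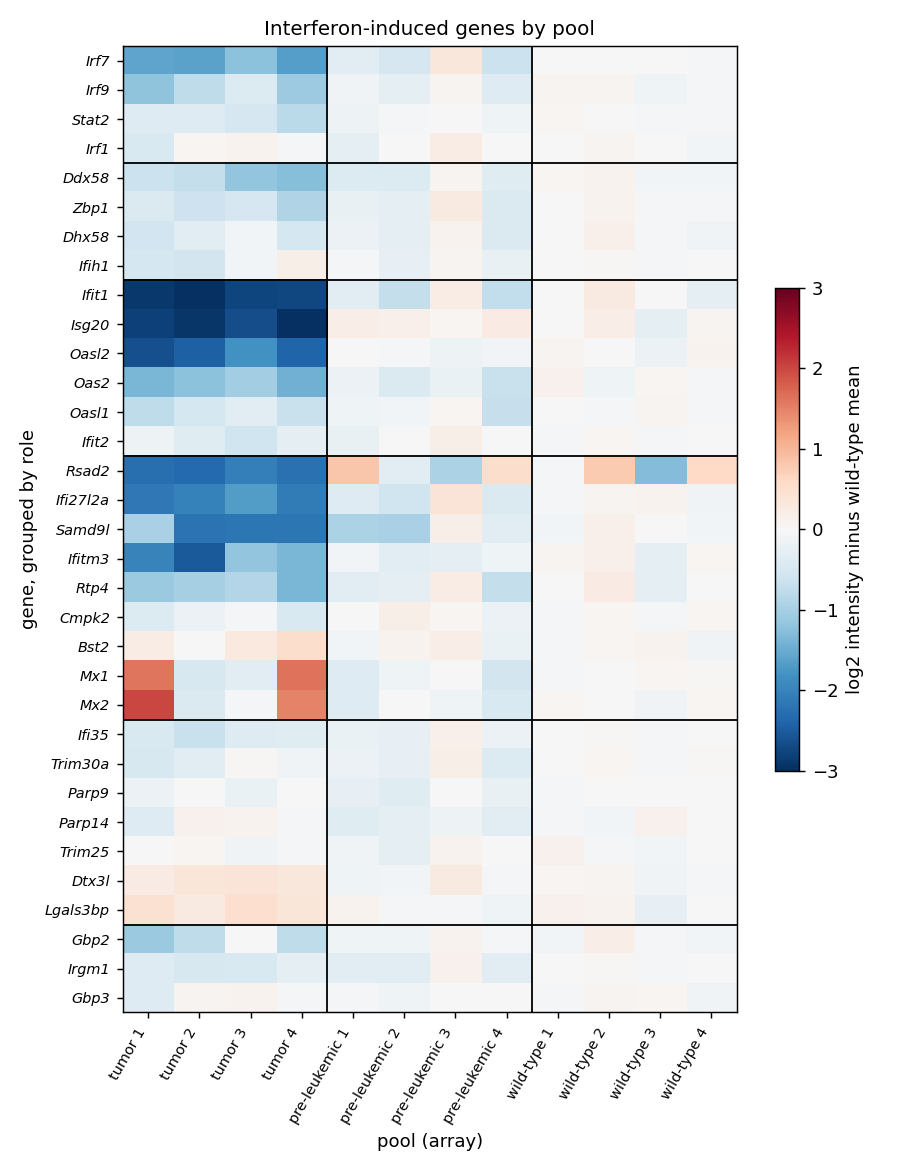
Log2 intensity minus the mean of the 4 wild-type arrays (colour, scale -3 to 3) for 33 genes (rows, grouped by role and separated by lines) in 12 pools (columns: 4 tumor, 4 pre-leukemic, 4 wild-type). Ifit1, Isg20 and Oasl2 are deep blue in all 4 tumors, Mx1 and Mx2 are red in tumors 1 and 4, and Rsad2 varies among the pre-leukemic and wild-type pools.

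Among the regulators, 3 of 4 fell. Irf7, the factor that amplifies interferon production, read 7.06, 7.05, 7.42 and 7.0 in tumors 1 to 4, against 8.33, 8.16, 9.0 and 8.0 in pre-leukemic pools and 8.67, 8.67, 8.66 and 8.61 in wild-type pools. The 4 tumors lay below all other pools, and the wild-type pools were nearly alike (SD 0.03). The tumor minus wild-type difference was -1.52 ± 0.10 (SE, limma adjusted p = 1.40e-05), or 2.87-fold lower. Irf9, the DNA-binding subunit of the ISRE complex, read 8.26, 8.71, 9.06 and 8.38 in tumors against 9.56, 9.57, 9.36 and 9.42 in wild-type thymus, a difference of -0.88 ± 0.16 (adjusted p = 0.00340). Stat2, its partner, also fell, by 0.52 on the log2 scale (adjusted p = 0.00397). Irf1, which responds mainly to interferon gamma, averaged 9.34 ± 0.25 in tumors and 9.42 ± 0.06 in wild-type thymus (SD, n = 4 each) and was not called (adjusted p = 0.641).

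Of the 4 sensors of foreign nucleic acid, 3 fell. Ddx58 encodes RIG-I, which binds viral RNA ends, and read 8.92, 8.85, 8.40 and 8.29 in tumors against 9.63, 9.67, 9.50 and 9.50 in wild-type thymus. The groups did not overlap, and the difference was -0.96 ± 0.14 (limma adjusted p = 0.00120). Zbp1, a sensor of left-handed nucleic acid, was 0.61 lower on the log2 scale, with a fold of 1.53 (adjusted p = 0.00242). Dhx58, which encodes the regulator LGP2, was called at -0.38 ± 0.11 (adjusted p = 0.0315), but tumor 3 at 7.25 lay above the lowest wild-type pool at 7.24. Ifih1, which encodes the sensor MDA5, was split among the tumors at 7.14, 7.12, 7.58 and 7.85, on both sides of the wild-type range of 7.63 to 7.71, and was not called (adjusted p = 0.265). Without tumor 4 it was called lower, at -0.39 (adjusted p = 0.0438).

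All 6 measured effectors of RNA and translation fell, with a median of -1.80. Ifit1 binds viral RNA that lacks the host's cap modification. It read 7.14, 6.69, 7.29 and 7.31 in tumors, against 9.70, 9.31, 10.26 and 9.30 in pre-leukemic pools and 10.03, 10.31, 10.04 and 9.75 in wild-type pools. Tumors and wild-type pools were about 3 log2 units apart (-2.93 ± 0.16, 7.60-fold lower, limma adjusted p = 5.66e-06). Isg20, an exonuclease that degrades RNA, read 8.83, 8.71, 8.96 and 8.30 in tumors against 11.63, 11.83, 11.33 and 11.70 in wild-type thymus, 7.58-fold lower (adjusted p = 5.66e-06). Isg20 read 11.69 to 11.86 in the pre-leukemic pools, so that it was bright in every 21-day thymus.

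Oas2 and the related Oasl genes behaved unequally. Oas2 makes the 2′-5′ oligoadenylate that switches on RNase L. It read 6.73, 6.87, 7.05 and 6.65 in tumors, against 7.93, 7.66, 7.90 and 7.44 in pre-leukemic pools and 8.23, 7.97, 8.15 and 8.04 in wild-type pools, 2.41-fold lower in tumors than in wild-type thymus (limma adjusted p = 4.66e-05). The tumor mean of 6.83 was at the weak level, so the fold may understate the change. Oasl2, an Oas-like protein with ubiquitin-like domains, fell 5.01-fold (tumors 6.99 to 7.80, wild-type 9.46 to 9.72). Its neighbour on chromosome 5, Oasl1, which has been described in mice as restraining Irf7 translation, fell by only 0.56 on the log2 scale, with tumors at 6.87 to 7.32 and wild-type pools at 7.58 to 7.72 (adjusted p = 0.00290). Ifit2, a relative of Ifit1, was called at -0.35 ± 0.09 (adjusted p = 0.0191) with tumors at 8.26 to 8.69 and wild-type pools at 8.80 to 8.92. The Ifit2 call was lost without wild-type pool 2 or wild-type pool 4, at -0.33 and -0.35.

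**Figure D2:**
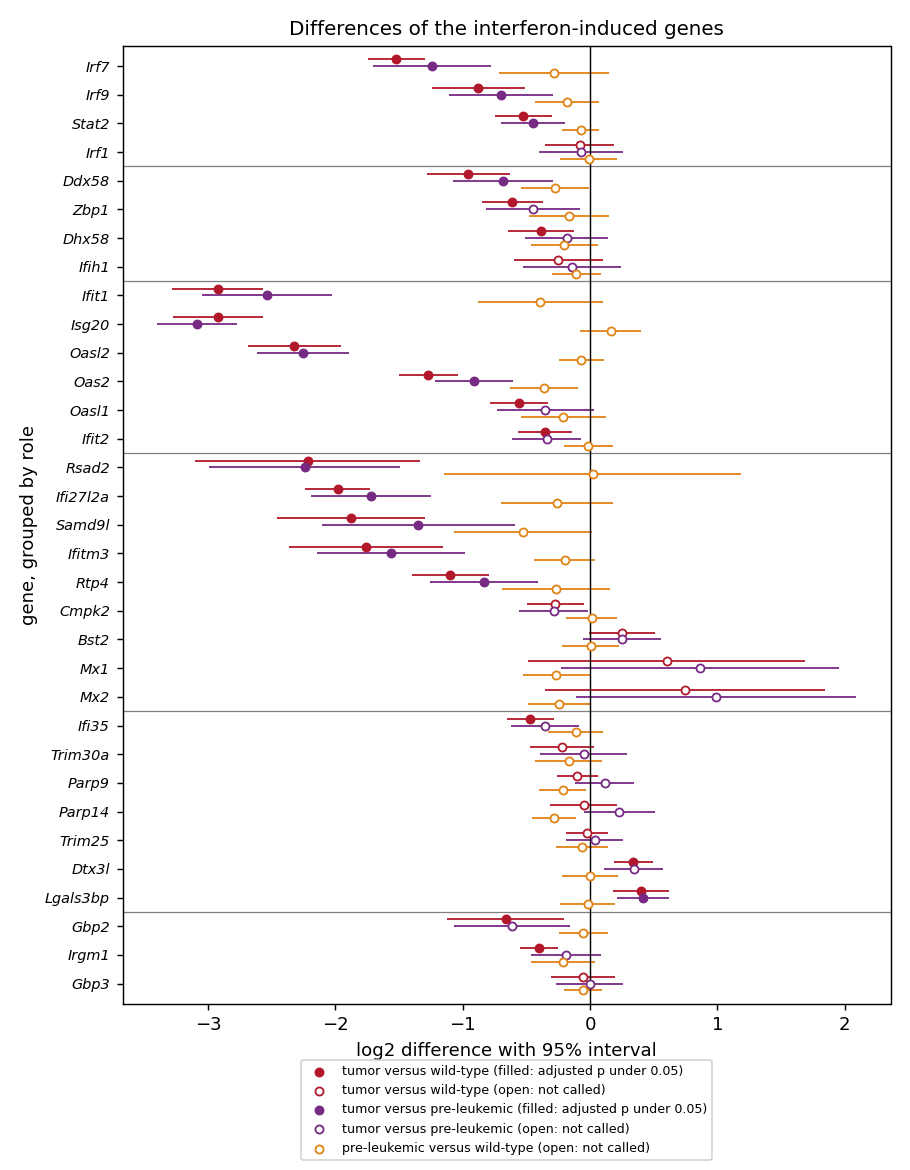
Log2 differences (x axis, with 95% intervals) of 33 genes (y axis, grouped by role) for tumor versus wild-type, tumor versus pre-leukemic and pre-leukemic versus wild-type, with filled points for adjusted p under 0.05. The purple and red points lie to the left for most genes, from -3.09 for Isg20 to 0.99 for Mx2, and every pre-leukemic versus wild-type point is open.

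Effectors of membranes, capsids and nucleotides gave 5 falls, no rise and 4 genes not called among 9, with the widest range of the 6 role groups. Ifi27l2a, a small hydrophobic protein strongly induced by type I interferon, read 7.52, 7.64, 7.99 and 7.55 in tumors against 9.59, 9.73, 9.76 and 9.55 in wild-type thymus, 3.95-fold lower (limma adjusted p = 7.00e-06). Ifitm3, which blocks viral fusion with endosomes, was 3.39-fold lower (adjusted p = 0.00122), although the tumors spread from 8.87 to 10.21. Rtp4, a chaperone that has been found to restrain flaviviruses, was 2.14-fold lower, at 7.58 to 8.07 in tumors and 8.69 to 9.21 in wild-type thymus.

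Samd9l, a growth-restraining protein whose human form is mutated in inherited marrow failure, had 1 tumor apart from the rest. It read 8.54 in tumor 1 and 7.30, 7.34 and 7.33 in tumors 2 to 4, against 8.55, 8.53, 9.68 and 9.16 in pre-leukemic pools and 9.43, 9.67, 9.50 and 9.43 in wild-type pools. All 4 tumors lay below the wild-type pools, by -1.88 ± 0.26 (limma adjusted p = 7.09e-04). Bst2 encodes tetherin, which holds budding virus at the cell surface. It went the other way from most of its group, with 8.66, 8.43, 8.73 and 8.98 in tumors against 8.41, 8.50, 8.54 and 8.33 in wild-type thymus, but was not called (0.25 ± 0.11, adjusted p = 0.130). Without tumor 2 it was called higher, at 0.34 (adjusted p = 0.0299). Cmpk2, a mitochondrial nucleotide kinase, was weak in all 3 groups and not called (-0.27 ± 0.10, adjusted p = 0.0652). It was called lower without tumor 3, at -0.345 (adjusted p = 0.0222), and with quantile normalization, at -0.264 (adjusted p = 0.0142). It was also called lower without the 4 arrays of narrowest intensity range, at -0.431 (adjusted p = 0.00356).

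**Figure D3:**
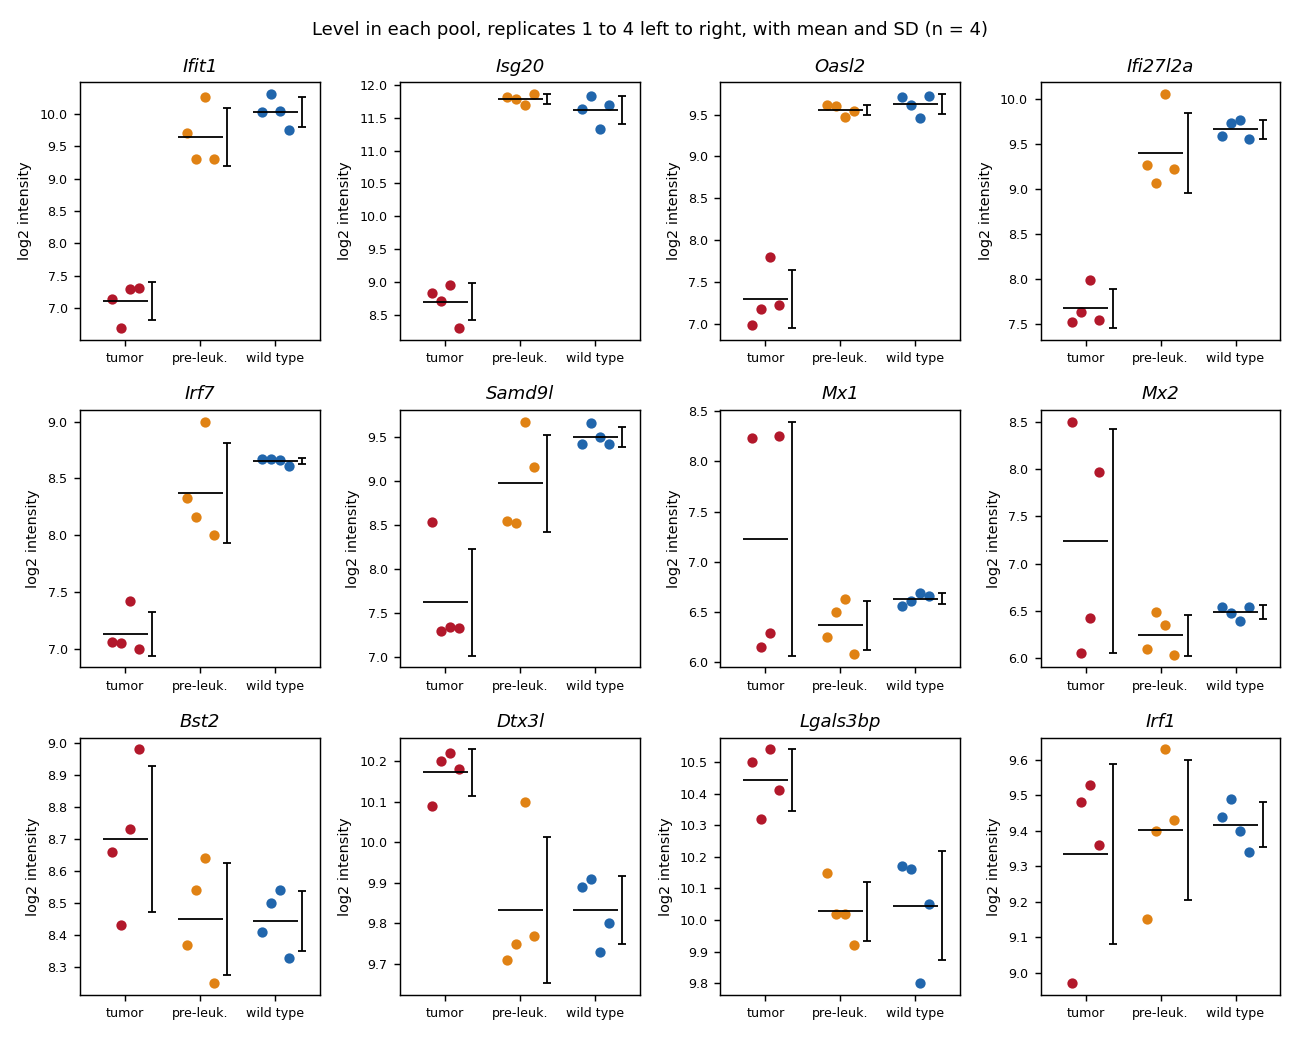
Log2 intensity (y axis, own scale in each panel) of 12 genes in 4 tumor, 4 pre-leukemic and 4 wild-type pools, with points for pools 1 to 4 from left to right, a line for the mean and a bar for the SD. Ifit1, Isg20, Oasl2, Ifi27l2a and Irf7 separate all tumors from all other pools, whereas Mx1 and Mx2 are high in tumors 1 and 4 only.

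Mx1 and Mx2, dynamin-like GTPases that trap viral capsids, split the tumors. Mx1 read 8.23, 6.15, 6.29 and 8.25 in tumors 1 to 4, against 6.08 to 6.63 in pre-leukemic pools and 6.56 to 6.69 in wild-type pools. Mx2 read 8.50, 6.05, 6.42 and 7.97 in tumors, against 6.03 to 6.49 and 6.39 to 6.54. Tumors 1 and 4 thus stood above every other array for both genes, and tumors 2 and 3 stayed at the weak level of thymus. The SD of Mx1 was 1.17 among tumors and 0.06 among wild-type pools, and neither gene was called against wild-type thymus (Mx1 0.60 ± 0.48, limma adjusted p = 0.380, 95% interval -0.49 to 1.69; Mx2 0.74 ± 0.49, adjusted p = 0.286). After each array was centred on its group, Mx1 and Mx2 correlated at 0.97 over 12 arrays, a description that rests on these tumors. Both genes lie on chromosome 16, and many inbred laboratory strains carry disrupted Mx alleles. Irf7 at 7.06 and 7.0 and Ifit1 at 7.14 and 7.31 did not set tumors 1 and 4 apart, but other members did. In tumors 1 and 4, Irf9 (8.26 and 8.38) lay below tumors 2 and 3 (8.71 and 9.06), as did Oas2. Irgm1 (8.71 and 8.80, beside 8.62 and 8.63) and Ifit2 lay above them. Members were not counted by this split. Tumors 2 and 3 were among the 4 arrays of narrowest intensity range, and the part of array range was not tested.

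The group that held the ISG15, ubiquitin and ADP-ribose enzymes did not share the fall as a whole. Isg15, Usp18 and Herc6 were not measured, so the group says little of ISG15 itself. The ISG15-conjugating enzyme Ube2l6, which stood in another list, fell against wild-type thymus (-3.04 ± 0.31). Of the 7 measured members of the group, 1 fell, 2 rose and 4 were not called, with a median of -0.05. Dtx3l, a ubiquitin ligase that works in a complex with Parp9, read 10.09, 10.20, 10.22 and 10.18 in tumors against 9.89, 9.91, 9.73 and 9.80 in wild-type thymus, 1.27-fold higher (limma adjusted p = 0.00535). Its partner and chromosomal neighbour Parp9 was not called (-0.10 ± 0.07, adjusted p = 0.322), nor was the next gene on the other side, the ADP-ribose transferase Parp14 (adjusted p = 0.773). Lgals3bp, a secreted glycoprotein that binds galectins, was 1.32-fold higher, at 10.50, 10.32, 10.54 and 10.41 in tumors against 10.17, 10.16, 9.80 and 10.05 in wild-type thymus (adjusted p = 0.0136). Ifi35, which binds the interferon-induced protein Nmi, fell by 0.47 on the log2 scale, with tumors at 8.21 to 8.51 and wild-type pools at 8.82 to 8.90 (adjusted p = 0.00233). Trim25, the ubiquitin ligase that activates RIG-I, averaged within 0.02 of wild-type thymus, and Trim30a was not called either (adjusted p = 0.173), except without tumor 3, at -0.303 (adjusted p = 0.0485).

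Among the GTPases induced mainly by interferon gamma, 2 of 3 were called lower. Irgm1, which guards against vacuolar pathogens, read 8.71, 8.62, 8.63 and 8.80 in tumors against 9.08, 9.13, 9.05 and 9.11 in wild-type thymus, a difference of -0.40 ± 0.07 (limma adjusted p = 0.00196). Gbp2, a guanylate-binding protein that attacks such vacuoles, was called at -0.66 ± 0.20 (adjusted p = 0.0344) with overlapping groups, since tumor 3 at 8.92 matched the wild-type pools at 8.87 to 9.13. Its call was lost when any 1 array other than tumor 3 was left out, at -0.51 to -0.69. Gbp3, its close relative, was not called (-0.06 ± 0.11).

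Tumors and pre-leukemic thymus share the Mcm4 D573H/+ genotype, so this comparison was free of the genotype difference. Of the 33 genes, 13 were called lower in tumors, 1 higher and 19 not called, against 8.27% and 7.74% of clusters called lower and higher. A negative difference was seen for 25 of 33 genes, against 45.5% of clusters. At least 2-fold falls were called for 8 genes, against 2.49% of clusters. Here too, 5982 of 17829 clusters but only 1 of the 33 genes were weak in both groups. Separate groups were found for 13 genes with tumors lower and 1 with tumors higher, against 10.2% and 11.6% of clusters. The median difference was -0.35, beside 0.02 over all clusters. All 13 genes, and the riser Lgals3bp, were called in the same direction against wild-type thymus, a comparison that uses the same tumor arrays. The 8 genes called only against wild-type thymus were Dhx58, Zbp1, Ifit2, Oasl1, Dtx3l, Ifi35, Gbp2 and Irgm1, and whether their 2 differences were unequal was not tested. Some of these 8 were near the threshold against pre-leukemic thymus: Oasl1 was called without pre-leukemic pool 4 (-0.509, adjusted p = 0.037) and Gbp2 without tumor 3 (-0.825, adjusted p = 0.00494). Zbp1, Ifit2, Dtx3l, Ifi35 and Gbp2 were called in 1 fit of all 12 arrays.

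Isg20 had the largest fall among them, -3.09 ± 0.14 (limma adjusted p = 5.48e-06), or 8.49-fold lower. Ifit1 was 5.80-fold lower (adjusted p = 1.69e-04), Oasl2 4.78-fold lower (adjusted p = 5.53e-05), and Ifi27l2a 3.30-fold lower. Irf7 fell by 1.24 on the log2 scale (adjusted p = 0.00414). These genes were separate between tumors and pre-leukemic pools. Samd9l was called at -1.35 ± 0.34 (adjusted p = 0.0251) with an overlap, because tumor 1 at 8.54 lay above pre-leukemic pool 2 at 8.53. Lgals3bp was 1.34-fold higher in tumors (adjusted p = 0.0140). Dtx3l missed the threshold at 0.34 ± 0.10 (adjusted p = 0.0548) and was called without pre-leukemic pool 3, at 0.43 (adjusted p = 0.0132). Trim25, Parp9 and Parp14 had differences of 0.04, 0.11 and 0.23 here and small negative ones against wild-type thymus, none of them called. Mx1 and Mx2 were not called either, at 0.87 and 0.99.

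Some calls rested on single arrays. Against pre-leukemic thymus, Irf9, Stat2, Ddx58, Samd9l and Rtp4 each lost the call when some 1 array was left out, while the other 9 of 14 kept it in all 8 such fits. Irf9 ranged from -0.58 to -0.74 in the fits that lost it, Stat2 from -0.41 to -0.47 with any pre-leukemic pool left out, Ddx58 from -0.56 to -0.73 and Samd9l from -1.12 to -1.29. Rtp4 lost its call only without tumor 4, at -0.74. Against wild-type thymus, 19 of 22 called genes kept the call in all 8 fits, and Dhx58, Ifit2 and Gbp2 did not. Dhx58 lost it without wild-type pool 1, 2 or 3 or tumor 1 or 4, at -0.32 to -0.40.

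No interferon-induced gene was called between pre-leukemic and wild-type thymus, where 0 of 17829 clusters were called by limma with Benjamini-Hochberg adjustment. An unadjusted p under 0.05 was found for 5 of the 33 genes, against 6.24% of clusters, and the smallest adjusted p among the members was 0.764. The 5 were Parp14 (-0.28 ± 0.08), Oas2 (-0.36 ± 0.12), Parp9 (-0.21 ± 0.08), Ddx58 (-0.27 ± 0.12) and Mx2 (-0.25 ± 0.11). Parp14 read 9.25, 9.31, 9.46 and 9.27 in pre-leukemic pools, against 9.55, 9.52, 9.73 and 9.62 in wild-type pools. Parp14 and Oas2 were the only members whose groups did not overlap, both with pre-leukemic pools lower, against 0.780% of clusters, and none was separate with pre-leukemic pools higher, against 3.65%. A negative difference was seen for 29 of 33 genes, against 38.1% of clusters, with a median of -0.17 beside 0.04 over all clusters.

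Pool by pool, this small shift belonged to 3 of the 4 pre-leukemic arrays. In pools 1, 2 and 4, 23, 23 and 22 of the 33 genes lay below all 4 wild-type arrays, while 24.7%, 26.3% and 30% of all clusters did. In each of these pools 1 gene lay above them all, against 38.4%, 47.6% and 24.4% of clusters. Pools 1 and 2 were among the 4 arrays of narrowest range, and the part of array range in these counts was not tested. In pool 3, 3 genes lay below all wild-type arrays, against 17.2% of clusters, and 13 of 33 lay above them all, against 30.7% of clusters. Pool 3 was the highest of the pre-leukemic pools for 25 of the 33 genes, for example Irf7 at 9.0 beside 8.0 to 8.33 and Ifit1 at 10.26 beside 9.30 to 9.70. The share of all clusters highest in pool 3 was not taken, so this count cannot be called particular to the members. Pool 3 also had the widest array range of the pre-leukemic pools (6.88 log2 units beside 6.45 to 6.82), whose part was not tested. The mean level of the members, above the mean of all genes, was 0.55, 0.35, 0.55 and 0.54 in tumors, 1.02, 0.92, 1.30 and 1.01 in pre-leukemic pools, and 1.27, 1.35, 1.14 and 1.22 in wild-type pools. Leaving out pre-leukemic pool 3 moved the median difference from wild-type thymus to -0.268, and leaving out pool 4 to -0.0899, with 0 genes called in each.

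Markers of mature T cells moved with this pattern. Their mean level on the same scale was 1.03, 0.76, 1.65 and 0.96 in pre-leukemic pools against 1.54, 1.62, 1.45 and 1.34 in wild-type pools, so that pool 3 was again the high one. Their summed intensity was 8712 to 14268 in pre-leukemic pools, with 14268 in pool 3, and 12137 to 13949 in wild-type pools. After centring each group, the members' mean correlated over 12 arrays with the mature T cell list at 0.658, with plasmacytoid dendritic cell markers at 0.642 and with medullary epithelial markers at 0.504. The other lists ran from -0.583 for neutrophils to 0.38 for conventional dendritic cells and macrophages. Pool 3 was the lowest pre-leukemic pool for fibroblast markers, at 1.07 beside 1.69 to 2.35. Of single members, Ifi27l2a followed the mature T cell list most closely, at 0.908, then Dhx58 at 0.892 and Irf7 at 0.855. Mx2 (-0.511), Mx1 (-0.416) and Rsad2 (-0.282) went the other way, and Ifit2 (-0.06), Ifitm3 (0.03) and Isg20 (0.04) showed almost no relation. These are descriptions over shared arrays, and the part of cell composition in the difference was not tested.

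**Figure D4:**
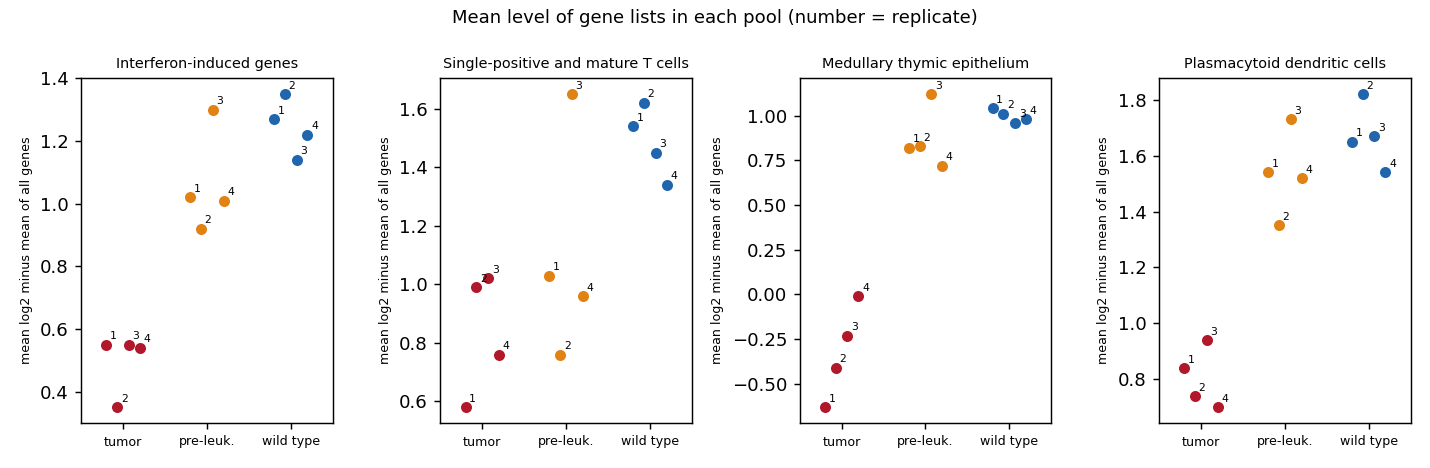
Mean log2 intensity minus the mean of all genes (y axis) for the 33 interferon-induced genes and 3 marker lists in each tumor, pre-leukemic and wild-type pool (points, numbered by replicate). Pre-leukemic pool 3 is the highest pre-leukemic point in all 4 panels, and tumors lie lowest for the interferon-induced genes at 0.35 to 0.55.

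Rsad2, the iron-sulfur enzyme viperin, was the member that spread most among the 21-day pools. It read 6.12, 6.04, 6.32 and 6.13 in tumors, against 9.20, 8.05, 7.43 and 8.89 in pre-leukemic pools and 8.31, 9.16, 7.06 and 8.96 in wild-type pools. The tumors were all at the weak level, and the 21-day pools spread over about 2 log2 units within each genotype. Tumors were 4.66-fold lower than wild-type thymus (limma adjusted p = 0.00273) and 4.73-fold lower than pre-leukemic thymus (adjusted p = 0.00246), both understated if background remains.

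The SD of Rsad2 was 0.80 among pre-leukemic and 0.95 among wild-type pools, the largest of the 33 genes in both groups, with Samd9l (0.55) and Ifit1 (0.23) next. Red-cell genes spread with it. Alas2, the heme synthesis enzyme of red-cell precursors, read 7.68, 7.24, 7.86 and 7.54 in tumors, against 12.03, 11.06, 10.49 and 11.93 in pre-leukemic pools and 11.69, 11.99, 10.37 and 12.10 in wild-type pools. Pool 3 was the lowest in both 21-day genotypes for Rsad2 and for Alas2 alike. With groups centred, Rsad2 and Alas2 correlated at 0.971 over 12 arrays and at 0.983 over the 8 arrays of 21-day thymus. The heme enzyme Fech reached 0.963 over 12 arrays and the red-cell anion exchanger Slc4a1 0.954. Fam220a ranked highest of all single-symbol genes, at 0.977. Cmpk2, which lies next to Rsad2 on chromosome 12 with no coding gene between and is often induced with it, gave -0.01. Since Cmpk2 was weak in every group, this value cannot show whether the neighbours were induced together. The summed intensity of 5 red-cell markers was 516 to 663 in tumors, 1865 to 5146 in pre-leukemic pools and 1751 to 5049 in wild-type pools, with Alas2 giving most of it in the 21-day pools. Without Alas2 the sums were 311 to 441, 428 to 965 and 430 to 663 in the same groups. Of the 5 markers, Alas2 and Slc4a1 fell in tumors against wild-type thymus and Klf1, Epor and Ermap were not called, with differences of 0.13, 0.33 and -0.13. Over 12 group-centred arrays, Rsad2 correlated with the red-cell list at 0.832, the neutrophil list at 0.731 and the fibroblast list at 0.727. Isg20 was also lowest in pool 3 of both 21-day genotypes. It correlated with Alas2 at 0.857 over the 8 arrays of 21-day thymus and at 0.59 over 12. The part of red cells or other cells in the Rsad2 and Isg20 differences was not tested.

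**Figure D5:**
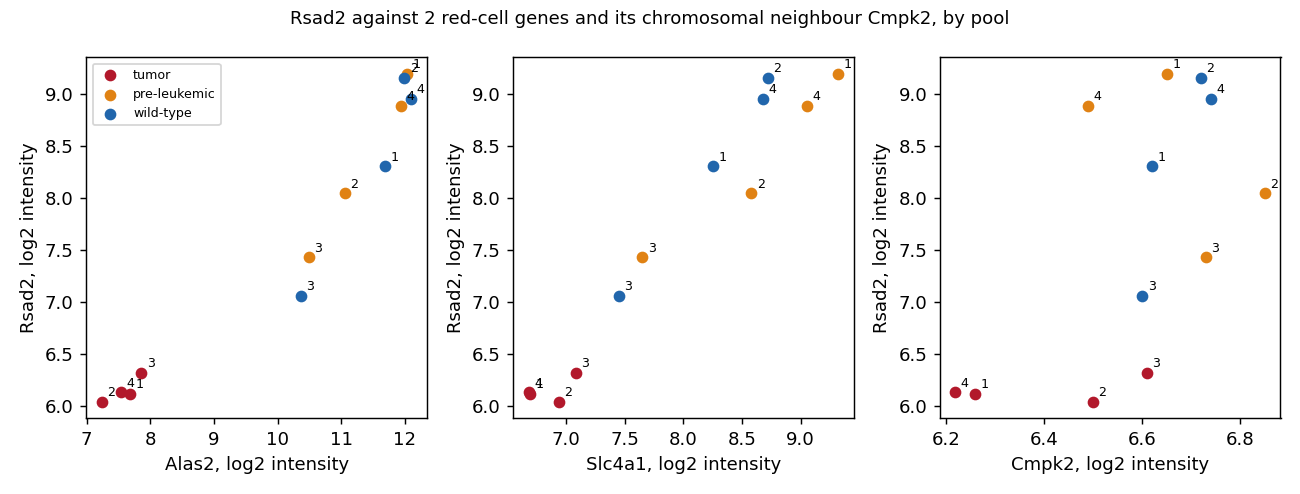
Rsad2 (y axis) against Alas2, Slc4a1 and Cmpk2 (x axes), all as log2 intensity, with a point for each of 4 tumor, 4 pre-leukemic and 4 wild-type pools, numbered by replicate. The 21-day pools rise together for Alas2 and Slc4a1 (0.983 and 0.969 over 8 group-centred arrays) and show no such line for Cmpk2, which was weak in every group.

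The rest of the interferon pathway was described from other gene lists, whose counts stand beside the same shares of all clusters (14.5% lower and 16.2% higher against wild-type thymus, 8.27% and 7.74% against pre-leukemic thymus). None of 9 measured interferon ligands was called in any comparison (smallest adjusted p 0.157 for tumor versus wild-type), and 7 of them, Ifnb1 and Ifng included, were weak. Ifnz read 7.5 to 7.94 in tumors and 7.27 to 7.69 in wild-type thymus. Among 6 receptor subunits, 3 fell and none rose against wild-type thymus, and 2 fell against pre-leukemic thymus. Both chains of the interferon gamma receptor fell: Ifngr1 read 11.62, 10.78, 10.69 and 10.82 in tumors against 12.12, 12.10, 12.02 and 12.01 in wild-type thymus (-1.08 ± 0.19, limma adjusted p = 0.00240), and Ifngr2 differed by -0.75 ± 0.07 (adjusted p = 8.94e-05).

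Signal transducers went both ways. Of 14 kinases, STAT and IRF factors and inhibitors, 6 fell and 3 rose in tumors against wild-type thymus, and 2 fell and 3 rose against pre-leukemic thymus. The feedback inhibitor Socs1, itself induced by interferon, fell by 0.88 on the log2 scale, while the related Socs3, which restrains STAT3 signals, rose by 1.28. Irf8, a factor of dendritic cells, fell by 0.68, and Irf4, a factor of activated lymphocytes, rose by 0.98 with overlapping groups. Of 18 genes upstream of interferon production, 3 fell and 1 rose against wild-type thymus (2 and 1 against pre-leukemic thymus), which is no more than about the share of all clusters. They included falls of Samhd1, a nucleotide-degrading enzyme, by 1.96 and of the RNA receptor Tlr7 by 0.81, and a rise of the adaptor Myd88 by 0.40.

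Other genes induced by type I interferon fell in part. Of 27 measured, 11 fell and 4 rose against wild-type thymus, with a median of -0.10, and 6 fell and 2 rose against pre-leukemic thymus. Ube2l6, the conjugating enzyme for ISG15, read 7.60, 7.53, 8.49 and 7.91 in tumors against 11.12, 11.25, 10.01 and 11.31 in wild-type thymus (-3.04 ± 0.31, limma adjusted p = 1.51e-04). Wild-type pool 3 was low for Ube2l6, as it was for Rsad2, and over the 8 arrays of 21-day thymus these genes correlated at 0.959. Ms4a4b, a membrane protein of mature T cells, fell by 1.90, whereas Slfn9 rose by 1.42 and the DNA-binding protein gene Ifi203 by 0.67. Of 12 genes induced mainly by interferon gamma, 7 fell and 1 rose against wild-type thymus (median -0.86), and 7 fell and none rose against pre-leukemic thymus. Cxcl11 and Cxcl10, chemokines that draw activated T cells, differed by -4.52 ± 0.33 and -1.86 ± 0.17. Cxcl11 read 5.54, 5.66, 7.17 and 6.46 in tumors against 10.89, 10.89, 10.65 and 10.48 in wild-type thymus. Tumors 1, 2 and 4 were at the weak level for Cxcl11, and all tumors were for Ms4a4b, at 5.15 to 5.37. Both differences may therefore understate the change. Wars, a tRNA synthetase, was the riser at 0.47. No gene of these lists was called between pre-leukemic and wild-type thymus.

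Markers of thymic cell types fell in tumors beside the interferon-induced genes. Against wild-type thymus, 12 of 12 cortical epithelial, 8 of 11 medullary epithelial, 6 of 10 plasmacytoid dendritic cell and 8 of 10 double-positive thymocyte markers fell, with no rise in these lists. Summed intensities of medullary epithelial markers were 1471 to 2515 in tumors, 4412 to 5938 in pre-leukemic pools and 5181 to 5482 in wild-type pools. For plasmacytoid dendritic cells, which make much type I interferon and share Bst2 with the members, the sums were 4840 to 6581, 10979 to 14012 and 12364 to 13742 in the same order of groups. Their surface receptor Siglech read 6.62, 7.04, 6.80 and 6.37 in tumors against 8.47, 8.51, 8.29 and 8.15 in wild-type thymus. Ccr9, which stood in both the plasmacytoid and the double-positive thymocyte list, had the largest fall of the plasmacytoid list, 7.43-fold. It read 10.06, 9.18, 10.08 and 9 in tumors against 12.5, 12.48, 12.5 and 12.42 in wild-type thymus. Ccr9 thus made up a large part of the wild-type plasmacytoid sums. Sums without Ccr9 were not taken, so its part in the lower tumor sums was not tested. Mature T cell markers gave 7 falls and 3 rises of 15, with sums of 11490 to 14166 in tumors, 8712 to 14268 in pre-leukemic pools and 12137 to 13949 in wild-type pools. Il2ra, the interleukin-2 receptor chain, was 3.29-fold higher in tumors and made up a large part of their sums, and without it the sums were 6630 to 8257 in tumors, 7013 to 12640 in pre-leukemic pools and 10412 to 12338 in wild-type pools. Of 16 markers of conventional dendritic cells and macrophages, 5 fell and 2 rose, and the macrophage marker Cd68 was higher in tumors by 0.64. Among the rest, 5 of 9 B cell, 8 of 12 neutrophil, 4 of 12 endothelial and 2 of 5 red-cell markers fell with no rise, 5 of 12 fibroblast markers fell and 1 rose, and 2 of 5 NK cell markers fell and 1 rose. The part of any of these cell types in the falls of the interferon-induced genes was not tested.

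The genes whose pattern was most like the mean of the members, by correlation over 12 group-centred arrays, were Tmem259 (0.932), Plekho1 (0.926), Ccl5 (0.925), Alyref, Mat2b, Fabp7, Reg3g (0.905), Sri, Cd86 (0.902) and Prpsap2 (0.895). The measure uses no difference between groups. Of these genes, Ccl5, a chemokine of T cells, Reg3g, a secreted lectin, and Cd86, a costimulatory ligand of antigen-presenting cells, were lower in tumors than in wild-type thymus. Their differences were -3.04, -2.25 and -1.84 (limma adjusted p at most 5.07e-06), and Sri was called at -0.246 (adjusted p = 0.0326). Reg3g, at 4.63 to 4.98, and Cd86, at 5.97 to 6.19, were weak in tumors. Ccl5 read 7.38, 6.91, 7.69 and 7.43 in tumors, against 10.21, 9.74, 10.61 and 9.74 in pre-leukemic pools and 10.45, 10.47, 10.27 and 10.36 in wild-type pools. Ccl5 was highest in pool 3 among the pre-leukemic pools. That follows from choosing genes for likeness to the members over these same arrays and is no further observation. Tmem259 and Plekho1 were not called (adjusted p = 0.429 and 0.672). Alyref, Mat2b, Fabp7 and Prpsap2 were not called either, and Alyref and Fabp7 had positive differences, 0.155 and 0.108.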

How the data were processed

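RNA of 12 pools, each of 3 organs, was extracted with Trizol and RNeasy, amplified with the Ambion WT expression kit and hybridised to 1-colour exon arrays, per the labels' protocols. The deposited values are linear intensities, 1 per transcript cluster. The background correction, normalization and summarising software are not stated in the labels, and scan dates are absent from them too, so batches could not be examined. A further 24 columns of other matrices were not used.

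Intensities were converted to log2 with no pseudocount or filter and fitted in R 4.3.3 by lmFit and eBayes of limma 3.58.1 (two-sided), each comparison on its own 8 arrays, with Benjamini-Hochberg adjustment over 17829 clusters. Clusters with 1 symbol numbered 15618, with several 1370 and with none 841. The fit was also run on simulated data with independent noise in each cluster. That simulation held no differences shared across a pool, so it cannot speak to the pool effects described above. The number of arrays limits the precision.

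Members and lists were chosen with earlier results of these data known. Named were, in each role list, the 2 called members with the largest fall and rise, members against the majority or with differing directions, the 5 smallest p between pre-leukemic and wild-type thymus, the 10 most alike genes, and 2 falls and 2 rises per other list, or 2 smallest p. Further members, markers and the genes set beside Rsad2 were chosen after their values were seen. Normalization, filters, a pseudocount, joint, weighted and robust fits, a fold threshold, the series' posterior rule, a replicate block and leaving out arrays were the alternatives. Same-numbered pools deviated with correlations of -0.554 to 0.423, so numbers were not taken as pairs. RefSeq promoters are from GRCm38.p6.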

Additional observations from a re-analysis of the deposited data

Results flagged for a closer look

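Of 102 sets of 4 values examined, 8 held an array far from the other 3 by Dixon's 95% criterion, where chance gives about 1 in 20. The 4 in pre-leukemic thymus were all high in pool 3: Ddx58 at 9.66 (others 9.16 to 9.21), Dtx3l at 10.1 (9.71 to 9.77), Ifi35 at 9.03 (8.63 to 8.68) and Irgm1 at 9.23 (8.75 to 8.78). Among tumors, Irf7 was 7.42 in tumor 3 (others 7.0 to 7.06), Samd9l was 8.54 in tumor 1 (7.30 to 7.34), and the mean level of the members was 0.35 in tumor 2 (0.54 to 0.55). In wild-type thymus, Gbp2 was 9.13 in pool 2 (8.87 to 8.90). Mx1 and Mx2 were not among them, because 2 tumors were high together.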

How the results depend on the processing

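Against wild-type thymus, the 22 called genes kept their direction under all alternatives run, and so did the 14 called against pre-leukemic thymus. Leaving out 1 array gave 17 to 22 falls, 2 to 3 rises and a median of -0.492 to -0.404 against wild-type thymus, 9 to 12 falls, 1 to 2 rises and a median of -0.382 to -0.27 against pre-leukemic thymus, and 0 calls between the 21-day groups, with a median of -0.268 to -0.0899. A required change of 1.5-fold (treat) left 9 falls and 0 rises against wild-type thymus and 5 and 0 against pre-leukemic thymus, and the series' rule of a posterior over 95% left 7 and 0, and 4 and 0, both being stricter by construction. Against pre-leukemic thymus, 2 rises were called with each array's median subtracted, with 16 added before log2, in 1 fit of 12 arrays, with trend and robust, with array weights, and without pre-leukemic pool 3. Averaging the clusters of a gene gave no other value, since each measured gene had 1 cluster.

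Leaving out the 4 arrays of narrowest range (pre-leukemic 1 and 2, tumors 2 and 3) was chosen after seeing the data and keeps only tumors 1 and 4. It gave 5 rises and a median of -0.551 against wild-type thymus, 6 falls and 2 rises against pre-leukemic thymus, and a median of -0.0855 between the 21-day groups. Mx1 and Mx2 were then called, at 1.61 and 1.74 against wild-type thymus.

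With the replicate number as a block, which the pairing check did not favour, 19 falls and 2 rises were called against wild-type thymus, 12 and 1 against pre-leukemic thymus and 0 between the 21-day groups, where Dhx58 (adjusted p = 0.0519), Ddx58 (0.0619) and Samd9l (0.0524) lost a call and Gbp2 gained one (0.0482).

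Reversed signs arose only in genes that were not called. With 1 array left out, the difference from wild-type thymus ranged from -0.145 to 0.0398 for Irf1, -0.0504 to 0.0211 for Trim25, -0.112 to 0.0599 for Parp14 and -0.108 to 0.0533 for Gbp3, and that from pre-leukemic thymus from -0.152 to 0.0516 for Irf1, -0.0281 to 0.0939 for Trim25, -0.135 to 0.0606 for Trim30a and -0.0537 to 0.107 for Gbp3. Other settings gave 0.0058 for Gbp3 against wild-type thymus (quantile normalization) and, against pre-leukemic thymus, 0.12 (quantile normalization), 0.0629 (medians subtracted) and 0.0137 (array weights) for Gbp3, 0.0556 for Irf1 (array weights), 0.0143 for Trim30a (medians subtracted) and -0.0717 for Trim25 (without the 4 arrays). The cause was not tested. Levels under 6.84, found on at least 1 array for 7 members, limit what can be read for Cmpk2, for Rsad2 in all tumors, for Mx1 and Mx2 outside tumors 1 and 4, for Oas2 and Dhx58 in tumors 1 and 4, and for Ifit1 in tumor 2.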
